A study of Saccharomyces cerevisiae x Saccharomyces kudriavzevii with 6 samples.

Results

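The 10 genes described here build, break down or carry glycerol in *Saccharomyces cerevisiae*. They are *GPD1*, *GPD2*, *GPP1*, *GPP2*, *GUT1*, *GUT2*, *STL1*, *FPS1*, *GCY1* and *DAK1*. They were chosen for their function, by systematic ORF name, out of 5616 ORFs in the table. The rule used no measured value, but earlier results of these data were known when the choice was made. VIN7 and W27, 2 commercial *S. cerevisiae* x *S. kudriavzevii* hybrids of wine, had been grown in Tempranillo must at 12°C or at 28°C and collected when exponential growth began. Both are allotriploids, and each has lost different parts of the *S. kudriavzevii* genome. The study describes W27 as lacking the *S. kudriavzevii* allele of *GPD1* and of *GUT2*, whereas VIN7 keeps alleles of both species. By allele-specific qPCR it reports more *GPD1* transcript in VIN7 than in W27, mainly from the *S. kudriavzevii* allele. For *GUT2* it lists a total below detection in W27, with the *S. cerevisiae* allele not determined, and a measured total in VIN7. Those are transcript levels and not ratios of 12°C over 28°C. The losses the study gives lie on chromosomes IV, IX and XV in W27 and on III, IV and VII in VIN7. *STL1* (IV), *GPP1* (IX), *GPD2* and *GCY1* (XV) also lie on chromosomes with losses. The study does not state which alleles of these genes each strain keeps. RNA of the 2 temperatures was hybridised together on 1 dual-colour array per replicate, with 3 arrays per strain named A, B and C, and the array carries PCR products of *S. cerevisiae* S288c ORFs. A spot therefore reads the alleles of both species together. The study used heterologous hybridisation conditions, and whether a spot reads both alleles equally was not tested. The values are log2 ratios of 12°C over 28°C, so that 1 stands for a level 2-fold higher at 12°C and -1 for a level 2-fold lower. Because each array is centred near 0, a change in total mRNA per cell and a change in all genes alike cannot be seen.

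Yeast makes glycerol from the glycolytic intermediate dihydroxyacetone phosphate, which a dehydrogenase reduces with NADH to glycerol 3-phosphate and a phosphatase then converts to glycerol. The route restores NAD+ in fermenting cells, which cannot pass the surplus NADH to respiration, and it supplies the main compatible solute with which yeast answers osmotic stress, such as that of sugar-rich must. Glycerol is used again by way of glycerol kinase and a mitochondrial dehydrogenase, or by oxidation to dihydroxyacetone, and it leaves or enters the cell through a channel and a proton symporter. The HOG (high osmolarity glycerol) signalling pathway switches on several of these genes. Among wine yeasts, *S. kudriavzevii* is known for a high glycerol yield.

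The arrays did not share a common scale or always a common direction. The SD over ORFs was lowest on VIN7 C (0.39) and highest on VIN7 B (1.71). On VIN7 C the 12°C sample carried Cy3 and on the other 5 arrays Cy5. The VIN7 C values were kept in the direction of their title. In that direction they correlated at r = 0.17 with the average of the other VIN7 arrays (3359 ORFs). The correlation was 0.37 with VIN7 A alone and 0.055 with VIN7 B alone, and VIN7 A and VIN7 B correlated at r = 0.36. W27 B and W27 C were close to each other (r = 0.79), whereas W27 A ran weakly against W27 B (r = -0.14) and W27 C (r = -0.19). Dye and temperature cannot be told apart in W27, where no array was swapped. The 10 genes had 53 values in all. 5 genes were measured on all 6 arrays, 4 on 5 arrays and *DAK1* on 3. All 10 could be tested in VIN7 and 9 in W27, for which a value on at least 2 arrays was needed.

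**Figure D1:**
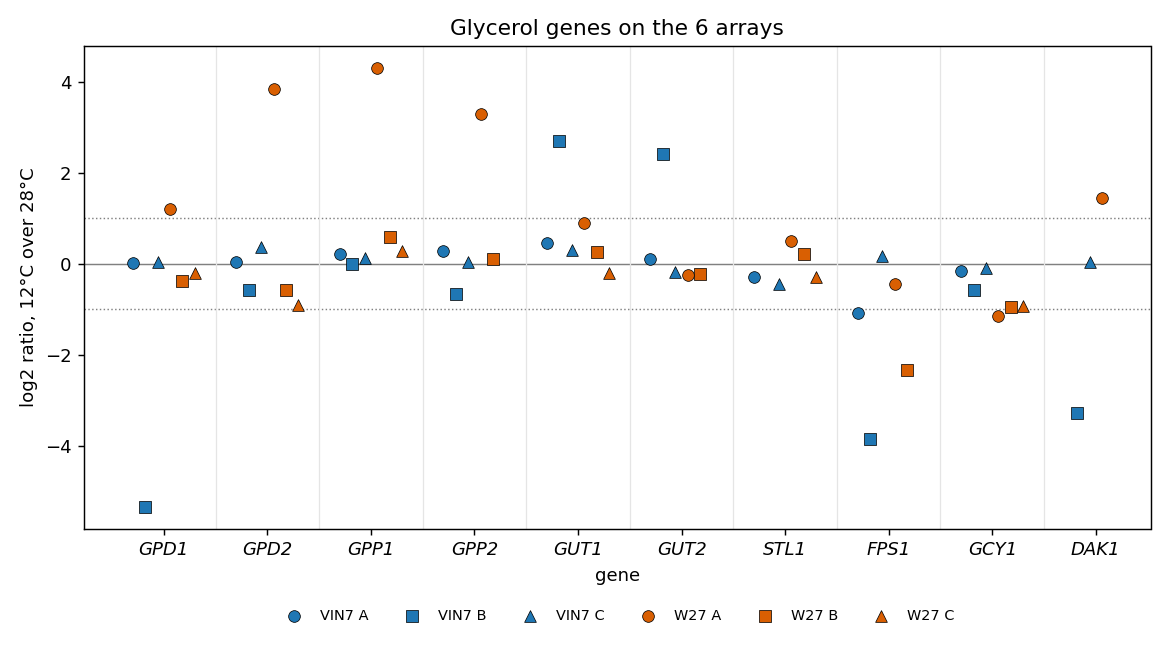
Log2 ratio of 12°C over 28°C (vertical axis) of each of the 10 genes (horizontal axis) on each array, with VIN7 in blue, W27 in orange, and circles, squares and triangles for replicates A, B and C. The solid line marks 0 and the dotted lines a 2-fold change. *GPD2*, *GPP1* and *GPP2* stand at 3.84, 4.30 and 3.29 on W27 A and within 1 of 0 elsewhere, whereas *GCY1* lies below 0 on every array.

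Of the 4 genes of glycerol synthesis, *GPD2*, *GPP1* and *GPP2* were far higher at 12°C on W27 A, which *GPD1* was not. On the other arrays *GPD2*, *GPP1* and *GPP2* stayed within 2-fold. There *GPD2* was lower at 12°C on W27 B (-0.58) and W27 C (-0.91), as well as on VIN7 B (-0.58). *GPD1* (YDL022W, chromosome IV) encodes the glycerol 3-phosphate dehydrogenase that osmotic stress induces. In VIN7 its log2 ratio was 0.02 on array A, -5.34 on array B and 0.046 on array C, so that 2 arrays were at 0 and the third gave a level 40.4-fold lower at 12°C. In W27 it was 1.20, -0.39 and -0.21 on arrays A, B and C, again with 1 array apart from the others. The means were -1.76 ± 3.10 in VIN7 and 0.20 ± 0.87 in W27 (SD, n = 3 each), and neither was called by limma (adjusted p = 0.612 and 0.931). Without VIN7 B the VIN7 mean was 0.033.

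*GPD2* (YOL059W, chromosome XV) encodes the second isoform of that dehydrogenase, the one that serves redox balance when oxygen is lacking. Its log2 ratio in VIN7 was 0.048 on array A, -0.58 on array B and 0.37 on array C. In W27 it was 3.84 on array A, a level 14.3-fold higher at 12°C, but -0.58 on array B and -0.91 on array C. The sign on W27 A was thus opposite to that on the other W27 arrays, and the W27 mean of 0.78 ± 2.65 (SD, n = 3, limma adjusted p = 0.855) describes none of them. Without W27 A the mean was -0.75, and it was called lower at 12°C (limma adjusted p = 0.0453). The VIN7 mean was -0.054 ± 0.48 (SD, n = 3, limma adjusted p = 0.942).

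*GPP1* and *GPP2* encode the glycerol 3-phosphate phosphatases, of which *GPP2* is the isoform induced by osmotic stress and *GPP1* the one linked to growth without oxygen. The 2 genes are close in sequence, so labelled cDNA of one may bind the spot of the other, which was not tested here. Their values cannot be taken as separate measurements. *GPP1* (YIL053W, chromosome IX) was at 0.22, -0.012 and 0.13 on the VIN7 arrays A, B and C. This was the narrowest spread of the genes with 3 VIN7 values (mean 0.11 ± 0.12, SD, n = 3, limma adjusted p = 0.849). On the W27 arrays it was at 4.30, 0.60 and 0.28. All 3 were above 0, but only on array A was the level, 19.7-fold higher at 12°C, above 2-fold. The W27 mean of 1.73 ± 2.24 (SD, n = 3) was not called by limma (adjusted p = 0.699), and it was 0.44 without W27 A.

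*GPP2* (YER062C, chromosome V) was at 0.27, -0.66 and 0.035 on the VIN7 arrays A, B and C, which is around 0, with a mean of -0.12 ± 0.49 (SD, n = 3, limma adjusted p = 0.867). In W27 array A gave 3.29 and array B 0.095, while array C had none. The 9.76-fold higher level on W27 A thus had no counterpart on the other W27 array with a value, and the mean was 1.69 ± 2.26 (SD, n = 2, limma adjusted p = 0.712).

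The position of a gene among all ORFs of the same array does not depend on the scale of that array. On W27 A only 0.310% of the 4834 ORFs stood higher than *GPP1* (rank 16), 0.662% higher than *GPD2* (rank 33) and 2.19% higher than *GPP2* (rank 107), whereas *GPD1*, with 19.8% of ORFs higher, was outside the highest 10%. On W27 B the synthesis gene with the highest position was *GPP1*, with 23.8% of ORFs above it. On W27 C *GPP1* had 42.2% of ORFs above it, and *GPD2* had 84.6%. The high positions of the synthesis genes in W27 were therefore those of array A. In VIN7 the position of *GPD1* was in the middle of array A (48.4% of ORFs higher) and of array C (43.7%) and near the bottom of array B (99.4%).

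**Figure D2:**
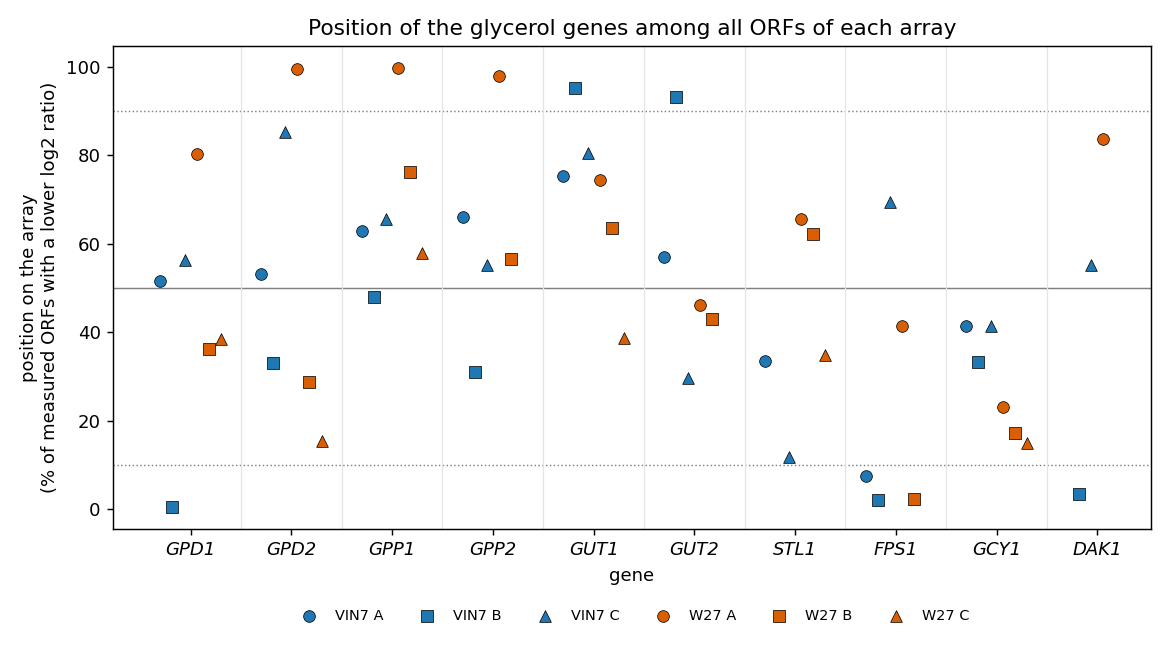
Position of each gene on each array, as the percent of the measured ORFs of that array with a lower log2 ratio (vertical axis), with VIN7 in blue, W27 in orange, and circles, squares and triangles for replicates A, B and C. The solid line is the middle of the array and the dotted lines bound its lowest and highest 10%. On W27 A, 3 of the 10 genes lie in the highest 10%, whereas *FPS1* lies in the lowest 10% on VIN7 A, VIN7 B and W27 B.

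For glycerol use, the kinase gene was higher at 12°C on every VIN7 array. *GUT1* (YHL032C, chromosome VIII) encodes glycerol kinase, which carries glycerol back to glycerol 3-phosphate and is repressed by glucose. Its log2 ratio was 0.46, 2.70 and 0.30 on the VIN7 arrays A, B and C, with a mean of 1.15 ± 1.34 (SD, n = 3, limma adjusted p = 0.612), and the mean without VIN7 B was 0.38. On the W27 arrays it was at 0.89, 0.26 and -0.21. Only W27 C was below 0, and the W27 mean was 0.31 ± 0.55 (SD, n = 3, limma adjusted p = 0.863). *GUT1* was the only one of the 8 genes measured on all 3 VIN7 arrays to be higher at 12°C on each of them, a direction shared by 24.4% of all ORFs with 3 VIN7 values.

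*GUT2* (YIL155C, chromosome IX) encodes the mitochondrial glycerol 3-phosphate dehydrogenase, the next step of glycerol use and a part of the shuttle that passes cytosolic NADH to respiration. It was at 0.11, 2.40 and -0.19 on the VIN7 arrays A, B and C, so that the mean of 0.77 ± 1.42 (SD, n = 3, limma adjusted p = 0.629) came from array B. Without that array it was -0.04. In W27 the log2 ratio was -0.25 on array A and -0.22 on array B, with no value on array C. These were the closest values of any of the 10 genes in W27 (mean -0.23 ± 0.026, SD, n = 2), although limma, which borrows spread from the other ORFs, gave no call (adjusted p = 0.926). On each of the 5 arrays that measured both, *GUT1* stood above *GUT2*, by 0.29 to 1.14 on the log2 scale, a difference between the responses and not between the levels of the 2 genes.

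*GCY1* was lower at 12°C on all 6 arrays, the only one of the 5 genes with 6 values to keep 1 sign. *GCY1* (YOR120W, chromosome XV) encodes an aldo-keto reductase assigned to the oxidation of glycerol to dihydroxyacetone. It was at -0.16, -0.57 and -0.083 on the VIN7 arrays A, B and C and at -1.16, -0.96 and -0.93 on those of W27. The 3 W27 values were close together and each lay below each VIN7 value. As all-array tallies go, 3.52% of the 2674 ORFs with 6 values were lower on all 6 arrays and 3.59% higher. The W27 mean was -1.01 ± 0.12 (SD, n = 3), a level 0.495 times that at 28°C, with an unadjusted p of 0.0463 and an adjusted p of 0.661 by limma. Without W27 A it was -0.94 and was called lower (limma adjusted p = 0.0161). In VIN7 the mean was -0.27 ± 0.26 (SD, n = 3, limma adjusted p = 0.676). *GCY1* was also the only one of the 6 genes with 3 W27 values that was lower on each W27 array (18.8% of all ORFs), and *GPP1* the only one that was higher on each (13.0%).

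*DAK1* (YML070W, chromosome XIII) encodes dihydroxyacetone kinase, which returns dihydroxyacetone to glycolysis. It was at -3.27 on VIN7 B, 0.035 on VIN7 C and 1.44 on W27 A and was missing elsewhere. The 3 values thus had no shared direction. The VIN7 mean was -1.62 ± 2.34 (SD, n = 2, limma adjusted p = 0.612). With 1 value the gene could not be tested in W27.

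Of the transport genes, the channel gene was lower at 12°C on 4 of 5 arrays. *FPS1* (YLL043W, chromosome XII) encodes the aquaglyceroporin through which glycerol leaves the cell and which closes under high osmolarity. It was at -1.09, -3.85 and 0.17 on the VIN7 arrays A, B and C and at -0.45 and -2.32 on the W27 arrays A and B, with no value on W27 C. The dye-swapped VIN7 C was the 1 array above 0. *FPS1* stood in the lowest 10% of the array on VIN7 A (92.4% of ORFs higher), VIN7 B (97.9%) and W27 B (97.7%). The means were -1.59 ± 2.06 in VIN7 (SD, n = 3) and -1.38 ± 1.33 in W27 (SD, n = 2), or 0.332 and 0.383 times the level at 28°C, and neither was called (limma adjusted p = 0.612 and 0.708). The VIN7 mean was -0.46 without VIN7 B and -2.47 without VIN7 C.

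*STL1* (YDR536W, chromosome IV) encodes the glycerol proton symporter, which takes glycerol up and is repressed by glucose. It was at -0.30 on VIN7 A and -0.44 on VIN7 C, without a value on VIN7 B, and at 0.50, 0.22 and -0.30 on the W27 arrays A, B and C. Every value was under 2-fold. The VIN7 mean was -0.37 ± 0.098 (SD, n = 2, limma adjusted p = 0.673) and the W27 mean 0.14 ± 0.40 (SD, n = 3, limma adjusted p = 0.945).

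By limma, 0 of the 10 genes tested in VIN7 and 0 of the 9 tested in W27 passed a false discovery rate of 5%, as was true of 0% of all 5100 and 4894 ORFs tested. At an unadjusted p under 0.05 the counts were 0 and 1 (*GCY1*), beside 279 and 356 of all ORFs. In VIN7 the median passed 2-fold for *FPS1* and *DAK1*, both lower, and for 0 genes higher, against 4.10% of ORFs lower and 5.71% higher. In W27 it did so for *GPP2*, higher, and *FPS1*, lower, against 10.3% of ORFs higher and 10.8% lower. The medians of *DAK1*, *GPP2* and, in W27, *FPS1* rest on 2 values. In W27 1 gene of 9 in each direction is close to the shares of the whole table, whereas 2 of 10 lower in VIN7 is above it. The VIN7 median of *FPS1* is its value on array A, and that of *DAK1* lies midway between arrays B and C. The median of the 10 VIN7 means was -0.20, against -0.025 over all ORFs, and that of the 9 W27 means was 0.20, against -0.027.

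Without W27 A, 6 of the genes had values on both other W27 arrays. Of these, *GCY1* and *GPD2* were called lower by limma and 0 higher, and their median was -0.17. That fit called 19.6% of 3938 ORFs lower and 19.5% higher, so a count of 2 among 6 is no result about the glycerol genes as a group. The arrays W27 B and W27 C are close to each other over all ORFs (r = 0.79), and whether their 12°C samples came from separate fermentations is not given by the labels. The p-values of that fit speak for these 2 arrays only.

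**Figure D3:**
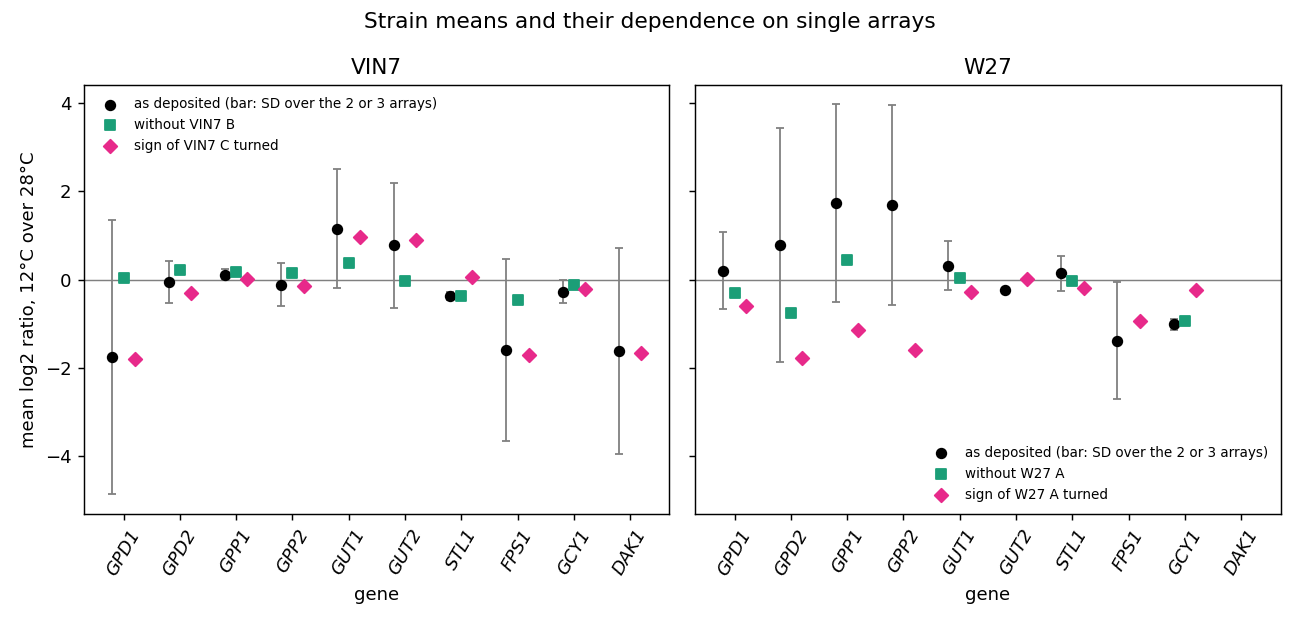
Mean log2 ratio of 12°C over 28°C (vertical axis) of each gene in VIN7 (left) and W27 (right) with all arrays as deposited (black circles, bars of 1 SD over the 2 or 3 arrays), with 1 array left out (green squares) and with the sign of 1 array turned (pink diamonds). A point is missing where under 2 values were left, as for *DAK1* in W27. In W27 the means of *GPD2* go from 0.78 to -0.75 without array A and -1.78 with array A turned, whereas *GCY1* stays at or below -0.24.

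The responses of the 2 strains were compared gene by gene over all 6 arrays. By limma, 0 of the 9 genes tested were called as different between W27 and VIN7 (0% of all 4670 ORFs; 0 of the 9 genes and 147 of all ORFs had an unadjusted p under 0.05). Among the 9 tested genes, the largest W27 minus VIN7 difference in mean log2 ratio was that of *GPD1*, 1.96 (standard error 1.40, limma adjusted p = 0.893), which comes from the -5.34 of VIN7 B. Without that array it was 0.17. The next were *GPP2* at 1.81 (standard error 0.99) and *GPP1* at 1.61 (standard error 1.03), both with W27 A far above all other arrays. Without W27 A the *GPP1* difference was 0.32, and *GPP2* had too few values left to be tested.

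A gap between the strains, with each W27 value on the same side of each VIN7 value, was found for 4 of the 9 genes. For *GUT2*, without a value on W27 C, and *STL1*, without one on VIN7 B, it rests on 5 values. Fewer values leave such a gap easier to reach. *GPP1* and *STL1* were above VIN7 on each W27 array, as were 8.99% of the 4670 ORFs with at least 2 values per strain. The gaps were narrow for both, from -0.301 on VIN7 A to -0.295 on W27 C for *STL1* and from 0.216 on VIN7 A to 0.28 on W27 C for *GPP1*. *GCY1* and *GUT2* were below VIN7 on each W27 array, as were 9.81% of ORFs. The gap of *GUT2* was also narrow, from -0.191 on VIN7 C to -0.215 on W27 B, and that of *GCY1* was the widest of the 4, from -0.573 on VIN7 B to -0.929 on W27 C. For *GCY1* the difference was -0.74 (standard error 0.48, limma adjusted p = 0.893), and -0.67 without W27 A. For *GUT2* it was -1.01 (standard error 0.89), and -0.19 without VIN7 B. When W27 A was turned in sign, the *GCY1* difference was 0.029.

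The isoforms of 1 step did not always move together. *GPD2* minus *GPD1* was 0.028 on VIN7 A and 0.32 on VIN7 C, but 4.75 on VIN7 B and 2.63 on W27 A, and it was -0.19 and -0.70 on W27 B and W27 C. The 2 arrays on which the dehydrogenase genes were far apart are those on which 1 of the pair was extreme, *GPD1* on VIN7 B and *GPD2* on W27 A. *GPP1* minus *GPP2* lay between -0.054 and 1.01 over the 5 arrays that measured both, with *GPP1* higher on 4 of them. As the spots of *GPP1* and *GPP2* may share signal, this difference may not show how far the isoforms differ.

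Genes around the pathway were followed as 4 lists by systematic name, drawn up from general knowledge of yeast with earlier results of these arrays known. They hold 12 further ORFs of glycerol and glycerol 3-phosphate metabolism (11 with a row), 26 ORFs of the HOG pathway (25 with a row), 6 carbon source regulators of glycerol use (5 with a row) and 7 of the TORC2 and Ypk1 branch, a plasma membrane stress pathway that acts on glycerol synthesis and export (6 with a row). By limma, 0 ORFs of these lists were called in either strain with all arrays (0% of all ORFs). An unadjusted p under 0.05 was found for 1 of 6 TORC2 ORFs tested in VIN7. In W27 it was found for 3 of 23 HOG ORFs and 1 of 5 regulators. Over all ORFs the counts at that cut were 279 of 5100 in VIN7 and 356 of 4894 in W27. A difference of the lists from these shares was not tested. Of the HOG ORFs with 3 VIN7 values, 5 of 17 were higher and 2 lower on all 3 arrays, and of those with 3 W27 values 2 of 16 were higher and 3 lower. The shares for all ORFs were 24.4% higher and 16.2% lower in VIN7, and 13.0% and 18.8% in W27, so the list was close to the table. The median of the HOG means was 0.28 in VIN7 and -0.17 in W27.

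The 2 HOG genes named in the study's supplementary list, *MSB2* and *HKR1*, encode the mucin-like membrane proteins that sense osmotic stress at the head of the Sho1 branch. *MSB2* (YGR014W) was higher at 12°C on all 6 arrays, at 0.70, 2.00 and 0.41 in VIN7 and 1.28, 0.57 and 1.59 in W27. That direction was shared by 3.59% of the 2674 ORFs with 6 values. Its means were 1.04 ± 0.85 and 1.14 ± 0.53 (SD, n = 3 each). *HKR1* (YDR420W) was at 2.68, 3.99 and -0.44 in VIN7 and 0.92, 2.38 and 2.81 in W27, above 0 on all arrays but the dye-swapped one, with means of 2.08 ± 2.27 and 2.04 ± 0.99 (SD, n = 3 each). Without W27 A both were called higher in W27 by limma (adjusted p = 0.0183 for *MSB2* and 3.88e-04 for *HKR1*). They were the only 2 of the 17 HOG ORFs tested in that fit to be called higher, and 3 were called lower. Over all ORFs that fit called 19.5% higher and 19.6% lower, so the calls are no result about the pathway. The study lists both genes for another comparison that includes the hybrids, so they are not an independent choice.

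In W27 without array A, limma called 4 of 5 ORFs of the TORC2 and Ypk1 branch higher and 1 lower, with a median of 0.84 against 0.0028 over all ORFs. On W27 A each of these 5 ORFs had the opposite sign. With all W27 arrays 0 of the 5 were called, and the median of their means was 0.19. The list was drawn up with earlier results known, and its difference from all ORFs was not tested. In the fit without W27 A, 2 of 10 ORFs of the further glycerol list were called higher and 1 lower. In the HOG list it was 2 of 17 higher and 3 lower, and among the regulators 0 of 3 higher and 1 lower. Over all ORFs these shares were 19.5% and 19.6%. The regulator called lower, YDR123C, was at -1.71 and -1.92 on W27 B and W27 C and at -0.97 and -0.47 on VIN7 A and VIN7 C. The glycerol list ORF called lower, YMR145C, was at -1.04, -0.86 and -0.88 on W27 A, W27 B and W27 C, a spread as narrow as that of *GCY1*. Neither ORF is paired with a name in the sources used here.

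The ORFs most like *GPD1* were sought among the other 2673 with 6 values, by the uncentred correlation over the 6 arrays after division by the SD of each array. The 5 closest reached 0.96 to 0.97, with YIL117C and YLR203C first, and none of the 5 has a name in the sources used here. VIN7 B made up 92.0% of the squared profile of *GPD1*. The likeness therefore reads that array almost alone, and VIN7 B was at -2.44 for YIL117C and -2.58 for YLR203C.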

How the data were processed

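The authors background-corrected the spots in GenePix, normalized each array in Acuity (the Methods speak of a log2 ratio value of 1, so the centring is not known), removed spots by flag and corrected print tip effects by hand. The deposited unit is the log2 ratio, 1 per ORF on each array, which the titles give as 12°C against 28°C. Scanner values were not used here, 0 columns were left unused, and all values were kept as deposited. Strain, replicate and dye came from the labels. The Methods speak of 2 fermentations per strain and the labels of 3 biological replicates, so p-values measure the spread between arrays, which may be partly technical, and the number of arrays limits the precision.

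The mean log2 ratio of each strain was tested against 0, and W27 against VIN7, with limma 3.58.1 (R 4.3.3) for ORFs with at least 2 values per strain concerned, with Benjamini-Hochberg adjustment over all ORFs tested (false discovery rate 5%). All printed adjusted p-values are from limma. The code of the fits was run on simulated data, which does not show whether these arrays could reveal a change. Chromosomes were read from the systematic names. The genes and lists were chosen with earlier results of these data known. All 10 glycerol genes are named; other genes are named only where the study's supplementary list pairs ORF and name. The alternatives were a turned sign of VIN7 C or W27 A, median centring, a common scale, complete values, array weights, a joint model, a dye term, a replicate block, the median in place of the mean, and leaving out each array. ORFs overlapping the 10 genes, and sequences, were not analysed here.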

Additional observations from a re-analysis of the deposited data

How the results depend on the processing

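With 2 or 3 arrays per strain of unequal spread, the mean of a gene often followed 1 array, such as the -1.76 of *GPD1* in VIN7, which was 0.033 without VIN7 B. Of 299 values of the glycerol genes under an alternative, 260 kept direction and side of the threshold and 36 changed direction. Part of the 260 could not change direction. Complete values and the joint model return the same mean, as do the median of 2 values and leaving out an array without a value. Where a setting called 0 of all ORFs, no glycerol gene could change side of the threshold. The count of 260 is therefore not a measure of robustness. Calls were made in 3 values of the same direction and in 1 of the 36, that of *GPD2* in W27 without W27 A. The cause of these changes was not tested.

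Genes called over all ORFs were 0 in each comparison as deposited. In W27 they were 1743 with array weights and 0 to 1540 when 1 array was left out (2 without W27 C and 1540 without W27 A), and between the strains 37 with array weights. A median of at least 2-fold gave 500 in VIN7 and 1032 in W27. Of the glycerol genes, 2 passed in each strain by that median and, in W27, 0 to 2 when 1 array was left out. With array weights 2 passed in W27 (*FPS1*, -2.23, adjusted p = 1.95e-04, and *GCY1*, -0.95, adjusted p = 0.0132). *FPS1* has only 2 W27 values, -0.45 on W27 A and -2.32 on W27 B. Its weighted mean is close to the W27 B value, so its call rests almost wholly on that array. The fit with array weights called 1743 of 4894 ORFs, so 2 of 9 is no result about the glycerol genes as a group. Over the alternatives the adjusted p of *GCY1* in W27 ran from 0.0132 to 1, that of *FPS1* from 1.95e-04 to 1 and that of *GPD2* from 0.0453 to 1.

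In VIN7, leaving out 1 array gave -2.66 to 0.033 for *GPD1*, -0.27 to 0.21 for *GPD2*, -0.31 to 0.15 for *GPP2* and -0.04 to 1.26 for *GUT2*. The median (chosen after seeing the data) was 0.02 for *GPD1*, 0.048 for *GPD2* and 0.035 for *GPP2*. A common scale gave 0.21 for *GPD2* and 0.010 for *GPP2*, array weights 0.12 and 0.14, and a dye term 0.052 for *GPD2*. With VIN7 C turned, *STL1* was at 0.070.

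In W27, turning W27 A gave -0.60 for *GPD1*, -1.78 for *GPD2*, -1.14 for *GPP1*, -1.60 for *GPP2*, -0.28 for *GUT1*, 0.019 for *GUT2* and -0.19 for *STL1*. Array weights gave -0.27 for *GPD1* and -0.58 for *GPD2*, and the dye term -0.33 for *GUT1*. The dye term was estimated from the VIN7 arrays alone, as no W27 array was swapped, so it cannot separate dye from temperature in W27. Leaving out 1 array gave -0.30 to 0.50 for *GPD1*, -0.75 to 1.63 for *GPD2* and -0.036 to 0.36 for *STL1*.

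For W27 minus VIN7, turning W27 A gave -1.72 for *GPD2*, -1.26 for *GPP1*, -1.48 for *GPP2* and 0.029 for *GCY1*. Array weights gave -0.037 for *GPD1*, -0.73 for *GPD2* and -1.44 for *FPS1*, and a common scale -0.059 for *FPS1*. Leaving out 1 array gave -0.69 to 1.68 for *GPD2* and -0.93 to 1.08 for *FPS1*. The replicate letters are only a shared name. Deviations of same-letter arrays from their strain means correlated at -0.11 (A), 0.11 (B) and -0.26 (C) over 2674 ORFs, and with the replicate block 0 genes were called.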
